A study of Mus musculus with 5 samples.

Results

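The H3K27me3 domains described here are the regions of the authors' H3K27me3 list that are wider than 100 kb. They were chosen by width alone, as unique regions by chromosome, start and end, and 309 of 8219 listed regions (3.76%) met the rule. These 309 domains covered 53.3 Mb, which was 26.0% of the 204.9 Mb in the whole list, and were listed for 615 gene symbols. The remaining regions served for comparison in 3 width classes, with 668 regions of 50 to 100 kb, 1811 of 20 to 50 kb and 5431 of up to 20 kb.

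The data come from chromatin immunoprecipitation with sequencing on striatal nuclei taken from C57BL/6 mice at 8 weeks of age, for which the labels state no mutation or treatment. Sorting used NeuN, a neuronal nuclear protein, and the labelled cell type is the medium spiny neuron, which is GABAergic and projects out of the striatum. The 4 antibodies were directed against H3K27me3 (from Millipore), H3K4me3, H3K27ac and RNA polymerase II (Pol II; all from Abcam), with 1 library each, and an input library was the fifth sample. With 1 library per antibody there is no replicate error, no test between samples was possible, and each exact (Clopper-Pearson) 95% interval covers counting error only and takes genes as independent, although neighbouring genes share regions. NeuN marks neurons in general, so signals from different neuron types in the sorted nuclei cannot be told apart. Read depth is unknown, since the lists hold regions, not counts. Each region has the authors' own score over input, whose scale is not given in the sources used here, so scores were compared only within a list. Only regions near annotated transcription start sites are listed, with none narrower than 2500 bp and none scored below 2.

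H3K27me3 is laid down by Polycomb repressive complex 2, whose catalytic subunits are Ezh1 and Ezh2, and is associated with silenced genes. The mark can spread from CpG-rich promoters over long stretches of chromatin, above all around genes of developmental transcription factors that direct the identity of other tissues. H3K4me3 marks promoters, and promoters with both marks are called bivalent. H3K27ac marks active promoters and enhancers, and the same lysine cannot be acetylated and trimethylated at once.

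The promoters of 5 domain genes are shown because each stands for a state described below. Foxc1 is the gene of the highest-scoring domain, Six2 had Pol II and H3K4me3 but no H3K27ac, Foxp4 and Gpr6 had all of H3K4me3, H3K27ac and Pol II, and Marco had none of these. Each sequence is the 250 bases before the annotated start in the RefSeq table of build GRCm38.p6, written 5′ to 3′ on the strand of the gene, with CG dinucleotides in capitals.
Foxc1, chr13:31806396-31806645, plus strand: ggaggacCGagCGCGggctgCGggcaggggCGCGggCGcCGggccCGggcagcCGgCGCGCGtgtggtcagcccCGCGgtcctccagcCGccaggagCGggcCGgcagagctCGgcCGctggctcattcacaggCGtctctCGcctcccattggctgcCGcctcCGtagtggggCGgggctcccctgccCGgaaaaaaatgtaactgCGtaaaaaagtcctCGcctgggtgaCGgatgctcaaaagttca
Six2, chr17:85688255-85688504, minus strand: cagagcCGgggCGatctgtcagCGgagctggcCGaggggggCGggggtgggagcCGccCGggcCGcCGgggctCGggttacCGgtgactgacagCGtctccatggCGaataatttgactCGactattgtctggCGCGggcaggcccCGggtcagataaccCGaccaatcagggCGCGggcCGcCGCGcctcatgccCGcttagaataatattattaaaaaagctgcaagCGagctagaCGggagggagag
Foxp4, chr17:47924633-47924882, minus strand: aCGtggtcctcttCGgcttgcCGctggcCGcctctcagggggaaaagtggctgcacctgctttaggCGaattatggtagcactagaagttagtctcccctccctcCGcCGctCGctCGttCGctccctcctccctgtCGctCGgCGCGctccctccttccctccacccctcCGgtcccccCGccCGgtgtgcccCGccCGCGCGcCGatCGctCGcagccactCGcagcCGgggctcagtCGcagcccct
Gpr6, chr10:41072291-41072540, minus strand: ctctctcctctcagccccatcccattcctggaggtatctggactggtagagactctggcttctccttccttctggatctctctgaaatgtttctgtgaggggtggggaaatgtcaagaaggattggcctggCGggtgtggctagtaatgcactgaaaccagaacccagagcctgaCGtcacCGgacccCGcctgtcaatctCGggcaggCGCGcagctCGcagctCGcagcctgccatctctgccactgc
Marco, chr1:120505025-120505274, minus strand: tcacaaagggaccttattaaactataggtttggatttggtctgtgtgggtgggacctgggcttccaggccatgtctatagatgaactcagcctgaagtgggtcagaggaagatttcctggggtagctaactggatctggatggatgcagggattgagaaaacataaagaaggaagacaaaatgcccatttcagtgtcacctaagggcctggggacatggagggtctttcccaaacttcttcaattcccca
The Foxc1 window held 29 CG dinucleotides, the Foxp4 window 27 and the Six2 window 26, against a median of 6 (quartiles 2 and 16) over 32851 promoters in the table. As many as 29 were held by 6.78% of all promoters, 27 by 8.56% and 26 by 9.59%. Gpr6 had 9, a number reached by 40.3% of promoters, and Marco had no CG, whereas 92.1% of all promoters had at least 1. GGGCGG, searched on both strands, occurred in the windows of Foxc1, Six2 and Foxp4 and in 32.7% of all promoters, and it contains 1 CG itself. CCAAT on either strand was found for Foxc1, Six2 and Gpr6 and in 33.8% of all promoters, while TATAA was found in none of these 5 windows and in 22.8% of all promoters. These are matches of letters in 5 chosen windows and not measured binding sites.

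The domains had a median width of 141.2 kb (quartiles 114.1 and 193.6 kb). The widest (mm9, chr1:191500001-192436800) measured 936.8 kb and was listed for Prox1, a homeobox regulator of lymphatic and neuronal development, with Cenpf, Ptpn14 and Smyd2. Next came 915.4 kb with the kainate receptor gene Grik3, Csf3r, Ftl2, Mrps15, Zc3h12a and others on chromosome 4, and 530.2 kb with Sez6l, Adrbk2, Myo18b and the crystallin genes Crybb2 and Crybb3 on chromosome 5. Of the rest of the 10 widest, Tshz2 (454.8 kb), Ebf3 (453.3 kb), Irx3 (439.7 kb), Irx5 (415.0 kb) and Tshz3 (403.1 kb) were developmental regulators listed alone. The domain of Dmbt1, Cuzd1, Htra1 and others was as wide as that of Irx5 (415.0 kb), and that of Gjb6, Gjb2 and Gja3 measured 394.4 kb. Just inside the limit lay Onecut1 at 100.1 kb and just outside it Meox1 at 100 kb and Dio3 with Dio3os at 99.6 kb.

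H3K27me3 scores of the domains had a median of 8.03 and ranged between 3.70 and 14.9, and the median of the whole list was 3.24. All 309 domains lay in the upper 50% of the list by score. Across the 309 domains width and score were weakly related (Pearson r = 0.27, Spearman rho = 0.28). This is a description over regions of a single library. The highest score was that of Foxc1, a forkhead regulator of mesenchyme and the anterior eye, at 14.9 over 141.2 kb. Other forkhead genes followed, with 14.5 each over the domain of Foxc2, Foxl1 and Mthfsd and over that of Foxf1a. The Wilms tumour gene Wt1 (14.4), Gata4 (14.3), Tcfap2c (14.2) and the Hoxc, Hoxd and Hoxa clusters (14.1, 13.9 and 13.8) came next. Among the 5 widest domains only Ebf3 scored above 13, with 13.1, while that of Grik3 scored 6.75.

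**Figure D1:**
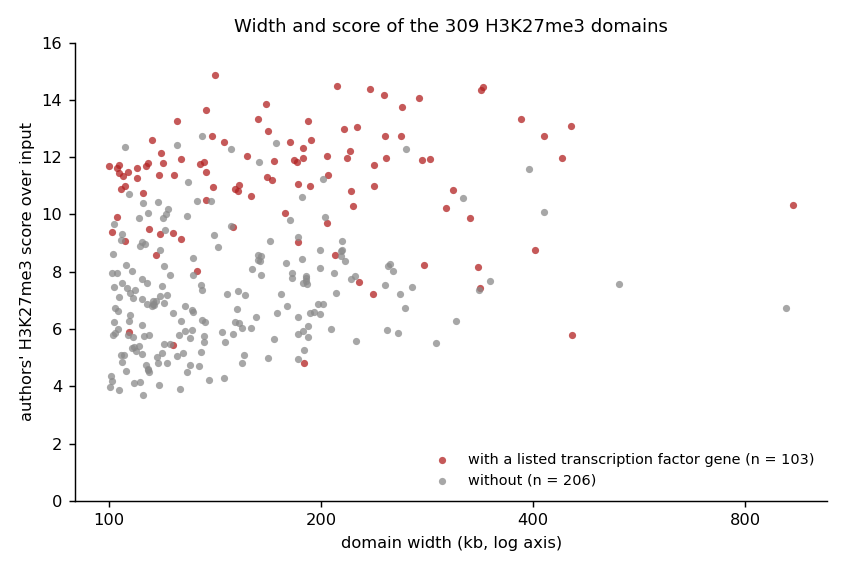
Each point is 1 of the 309 H3K27me3 domains, with its width in kb on a log axis and the authors' H3K27me3 score over input on the vertical axis; red points hold a listed transcription factor gene (103 domains) and grey points do not (206). Red points have a median score of 11.5 and grey points of 6.98, and the widest domain, of 936.8 kb, scored 10.3.

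Most domains were listed for a single gene, but this share was lower than among all H3K27me3 regions. A single gene was listed in 176 of 309 domains (57.0%), against 82.9% of all H3K27me3 regions. There were 65 domains with 3 or more genes, of 339 such regions in the whole list. Genes per region averaged 1.99 in the domains and 1.15 over all H3K27me3 regions. The domains held 1.15 listed genes per 100 kb, against 2.38, 4.19 and 10.95 in regions of 50 to 100 kb, 20 to 50 kb and up to 20 kb. A listed region has to reach at least 1 start site, so a falling density with width is partly built into the lists. The Hoxa and Hoxb clusters led with 15 genes each, followed by Hoxd with 12, Hoxc with 11 and a group of kallikrein genes around Klk1b8 with 10. Of the 615 genes, 561 were protein-coding, 26 were long noncoding RNA genes and 17 were miRNA genes.

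Listed transcription factors with a role in patterning made up 152 of the 615 domain genes (24.7%). Of 548 coding genes in 7 lists of such factors, those 152 lay in a domain (27.7%, interval 24.0 to 31.7%), whereas 2.66% of all 21031 coding genes did. The lists were written with results of these data known, so these shares are descriptions. Homeobox genes stood first, with 89 of 188 in a domain (47.3%, 40.0 to 54.7%). That list is not complete. The homeobox genes Otp (105.2 kb, score 12.4) and Hlx (163.2 kb, score 11.8) also lay in domains and are not counted. Forkhead genes had 14 of 44, the AP-2, Runx and nuclear receptor list 20 of 123, bHLH genes 11 of 69 and T-box genes 4 of 17. GATA, Zic and Gli zinc fingers had 11 of 87 and Sox genes 3 of 20. The median H3K27me3 score of the 152 was 11.97. Any H3K27me3 region was listed for 433 of the 548, beside 42.4% of all coding genes.

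Within the homeobox list, the Hox genes made up only a part. The Irx genes Irx1 to Irx6, the paired-box genes Pax1, Pax2, Pax3, Pax5, Pax6, Pax7 and Pax8, and the kidney and eye genes Six2 and Six6 were in domains. So were Nkx2-1 and Nkx2-2, Gsx1 and Gsx2, Pitx1, En1 and En2, and Emx2 and Otx2. Several of these act early in the forebrain: Gsx2 specifies striatal progenitors and Nkx2-1 the progenitors of many striatal interneurons. Among the bHLH factors, the proneural genes Neurog1 and Neurog2, the heart and limb gene Hand2, the oligodendrocyte genes Olig1 and Olig2 and the hindbrain gene Olig3 lay in domains. Nfia and Nfix, nuclear factor I genes with roles in glia and neurons, also did.

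Genes of signalling pathways took a smaller place in the domains. Of 242 coding genes in 5 lists, 11 were (4.55%, 2.29 to 7.99%), beside the 2.66% of all coding genes. The Wnt list gave 5 of 51, with the ligands Wnt7b and Wnt8b, the receptors Fzd6 and Fzd10 and the enhancer of Wnt signalling Rspo4. From the BMP and TGF-beta list came Gdf2, Gdf6 and Gdf10. Fgfr2, the hedgehog ligand Ihh and the netrin receptor Unc5b were the other members. None of 57 clustered protocadherin genes and none of 25 Polycomb genes lay in a domain. The exact intervals reach 6.27% and 13.7%, so these counts do not set either list apart from all coding genes (2.66%). Olfactory receptor genes had 13 of 1108 in 3 domains (1.17%), with scores near the low end (median 3.96), and the keratin genes Krt5 and Krt71 lay together in another domain. Potassium channels had 7 of 94, Kcnj1, Kcnj6, Kcnj15, Kcnk5, Kcnk16, Kcnmb1 and Kcnq1. Among amine receptors, the dopamine receptor gene Drd5 (domain score 11.1) and the adrenergic receptor gene Adra1d were in domains. Grik3 was the only one of 49 glutamate and GABA receptor genes there.

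Cell type markers in the domains came from some of the marker lists and not from others. Of 14 medium spiny neuron markers, such as Ppp1r1b and Drd2, all had H3K4me3, H3K27ac and Pol II regions, 6 had some H3K27me3 region, beside 42.4% of all coding genes, and none lay in a domain, beside 2.66% of all coding genes. For 0 of 14 the limit by 3 counts is 21.4% and the exact interval reaches 23.2%, so this count does not set the markers apart from other genes. The 5 pan-neuronal markers had all of the active marks and no H3K27me3, which 42.4% of all coding genes had. For 0 of 5 the exact interval reaches 52.2%, so the lack of H3K27me3 does not set these 5 genes apart. Of 5 endothelial and mural markers, 2 lay in domains, the receptor genes Flt1 (135.5 kb, score 12.7) and Kdr (104.5 kb, score 7.62). Of 6 oligodendrocyte markers, 2 did, Olig1 (116.8 kb) and Olig2 (103.4 kb). The astrocyte list had 1 of 5, Sox9, and the interneuron list 1 of 6, the peptide gene Sst (185.3 kb, score 9.22). Each of these shares lay above the 2.66% of all coding genes, but the lists are small. No microglia marker of 5 lay in a domain, where the exact interval again reaches 52.2%. H3K27ac was listed for 1 of 5 astrocyte genes and 1 of 6 oligodendrocyte genes, and for none of the microglia, endothelial or interneuron genes. The limit by 3 counts is 60% for 0 of 5 and 50% for 0 of 6, so lists this small cannot show a lack of H3K27ac.

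H3K4me3 was the mark most often found with the domains. An H3K4me3 region lay wholly inside 246 of 309 domains (79.6%, 74.7 to 84.0%), against 26% of all listed H3K27me3 regions. The share grows with width by construction, since wider regions have more room, and per 100 kb the domains held fewer such regions (0.642) than regions of 50 to 100 kb (1.08) or 20 to 50 kb (1.44). Counted over genes, 446 of 615 domain genes had an H3K4me3 region sharing at least 1 bp with their H3K27me3 region (72.5%, 68.8 to 76.0%), beside 52.5% of the genes of all H3K27me3 regions. The share was 60.4% for regions of 50 to 100 kb, 54.8% for 20 to 50 kb and 47.7% for up to 20 kb. Domain genes minus genes of all narrower regions gave 21.4 percentage points (interval 17.6 to 24.9). These regions had low scores in their own list: the median H3K4me3 region inside a domain stood at percentile 19.9 of the H3K4me3 list, and only 35 of 342 were in its upper 50%. With that upper 50% alone the difference turned to -2.64 points.

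H3K27ac and Pol II were each found inside a small part of the domains. A region of H3K27ac lay wholly inside 35 of 309 (11.3%, 8.02 to 15.4%), against 3.72% of all H3K27me3 regions. A region of Pol II also lay inside 35 (11.3%), against 1.68%. These shares too grow with width by construction. Per 100 kb, H3K27ac regions inside numbered 0.0694 in the domains and 0.152 in all H3K27me3 regions. For Pol II the values were close, 0.0675 and 0.0683. H3K27ac was found at 68 domain genes (11.1%, 8.69 to 13.8%), against 18.7% of the genes of all H3K27me3 regions, with 15.1%, 15.3% and 21.8% in the narrower classes from wide to narrow. The difference, domain genes minus genes of narrower regions, was -8.16 points (-10.6 to -5.32). Pol II was found at 64 domain genes (10.4%, 8.11 to 13.1%), beside 10.8% of the genes of all H3K27me3 regions, and the difference of -0.40 points (-2.67 to 2.34) was within counting error. When any Pol II region listed for the symbol counted, whether or not it shared bases with the H3K27me3 region, the difference was -3.52 points (-5.92 to -0.68). With only the upper 50% of each list by score, H3K27ac and Pol II were each found at 1.79% of domain genes. H3K4me3 without H3K27ac or Pol II was the state of 354 domain genes (57.6%), and 168 (27.3%) had none of the 3. Of the genes of regions up to 20 kb, 25.3% had H3K4me3 alone and 52.2% none.

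**Figure D2:**
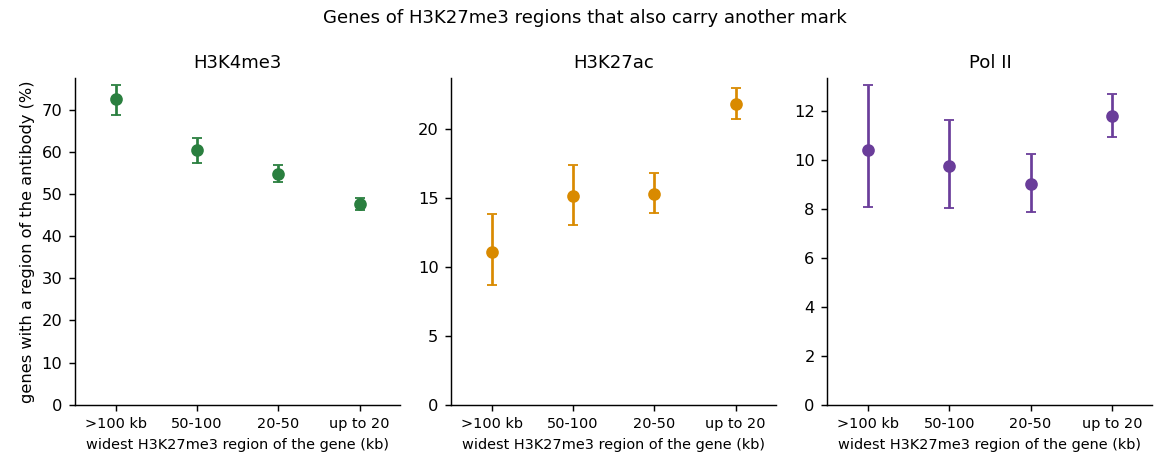
Points give the percent of genes with a region of H3K4me3, H3K27ac or Pol II, for genes whose widest H3K27me3 region is over 100 kb, 50 to 100 kb, 20 to 50 kb or up to 20 kb; bars are exact 95% intervals and the vertical axes, which differ between panels, start at 0. H3K4me3 is highest in the domains at 72.5%, H3K27ac lowest there at 11.1%, and Pol II lies between 9.03% and 11.8% in all 4 classes.

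The Hox clusters carried the longest H3K4me3 stretches in the domains. H3K4me3 covered 69.9% of the Hoxd domain (mm9, chr2:74445301-74612400), 59.1% of Hoxa, 53.5% of Hoxb and 47.2% of Hoxc. The largest H3K4me3 region of each was 132.8 kb wide in Hoxb, 111.3 kb in Hoxc, 108.6 kb in Hoxa and 73.7 kb in Hoxd, where the list median was 6.4 kb. In the Hoxd domain the 73.7 kb region had a score of 4.63, a second of 37.3 kb with Hoxd4 and Mir10b scored 3.23, and that of Hoxd1 scored 5.76, all below the list median of 7.05. Outside the clusters, the AP-2 factors of the neural crest Tcfap2b and Tcfap2a (40.3% and 38.1%) had the highest cover.

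The Hox domains also held 6 of the 17 miRNA genes listed in domains. These are shown because the copies in separate clusters share their seeds. The mature sequences are from RefSeq (GRCm38.p6), with bases 2 to 8, the seed, in capitals.
miR-10a-5p, Hoxb cluster: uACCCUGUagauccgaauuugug
miR-10b-5p, Hoxd cluster: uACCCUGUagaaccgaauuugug
miR-196a-5p, Hoxb and Hoxc clusters: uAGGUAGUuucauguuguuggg
miR-196b-5p, Hoxa cluster: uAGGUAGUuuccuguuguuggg
The seed ACCCUGU was shared by 2 miRNA genes in domains and AGGUAGU by 3. Of the 17 miRNA genes, H3K4me3 was found at 10, H3K27ac at 1 and Pol II at 1, Mir423. Among all domain genes the shares were 72.5%, 11.1% and 10.4%, so these counts do not set the miRNA genes apart.

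Domains with and without a listed transcription factor differed in score and in the other marks. The 103 domains with such a gene had a median score of 11.5, against 6.98 in the other 206, and a median width of 171.4 kb against 132.6 kb. The domains of the homeobox genes Otp and Hlx count among the 206, since the lists do not hold these genes. An H3K4me3 region lay inside 98 of 103 (95.1%), against 148 of 206 (71.8%), and H3K4me3 regions covered 13.9% of the summed length of the domains with a factor, against 4.72% of that of the others. H3K27ac lay inside 5 of 103 (4.85%) against 30 of 206 (14.6%), and Pol II inside 22 (21.4%) against 13 (6.31%). Over genes, 150 of the 152 listed factors had H3K4me3 (98.7%), 24 had Pol II (15.8%) and 5 had H3K27ac (3.29%). Of the other 71 genes in the same domains, 52 had H3K4me3, 6 had Pol II and 8 had H3K27ac. At the factors H3K4me3 had a median score of 4.45 over 22.1 kb, and at the other genes of all domains it had a median score of 4.60 over 6.1 kb. These medians are over genes, so a region shared by many Hox genes counts many times. Over H3K4me3 regions wholly inside, the median width was 17.2 kb in domains with a factor and 5.9 kb in the others.

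The domains were also grouped by their H3K27me3 score, which comes from the same library as the width. In the lowest-scoring group (78 domains, 3.70 to 6.26) 39 had H3K4me3 inside, 15 had H3K27ac and 9 had Pol II. In the second (77 domains, 6.27 to 8.03) the counts were 59, 10 and 4, and in the third (77 domains, 8.08 to 10.9) they were 73, 10 and 5. In the highest (77 domains, 10.96 to 14.9) 75 had H3K4me3, none had H3K27ac and 17 had Pol II wholly inside. For 0 of 77 with H3K27ac wholly inside the limit by 3 counts is 3.896%, and the exact interval reaches 4.68%. Regions across an edge are not in these counts. H3K27ac did lie across an edge of some domains of the highest group, such as those of Foxc2 with Foxl1 (score 14.5) and Skor2 (13.7). Listed transcription factors were in 4, 4, 28 and 67 domains of the 4 groups in the same order. H3K4me3 cover had medians of 3.35%, 3.72%, 6.26% and 15.6%, and score and cover were related over the 309 domains (Pearson r = 0.59, Spearman rho = 0.65), as a description within these libraries.

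**Figure D3:**
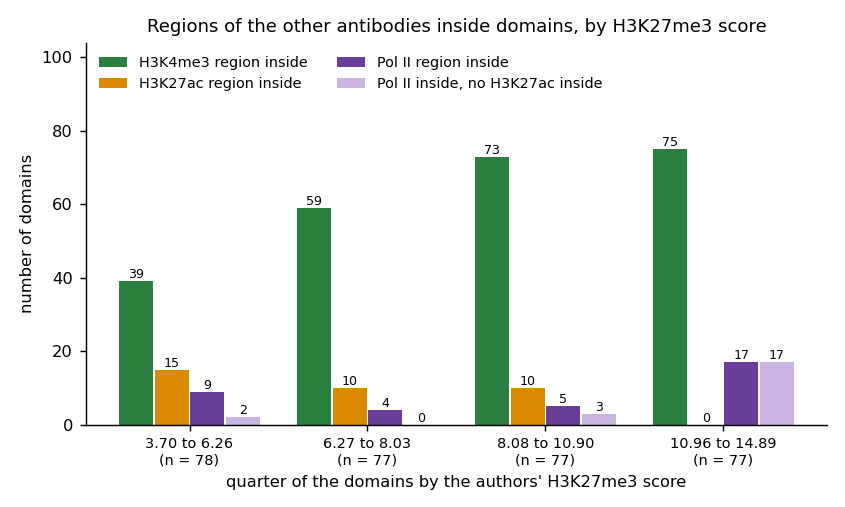
Bars count the domains with a region of each antibody wholly inside, in 4 groups of domains ordered by the authors' H3K27me3 score, with the score range and number of domains under each group. H3K4me3 is in 39 of 78 domains at the low end and 75 of 77 at the high end, H3K27ac in 15 and 0, and Pol II without H3K27ac in 2 and 17.

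Pol II without H3K27ac was found mainly at developmental factors. It was the state of 25 domain genes (4.07%, 2.65 to 5.94%), beside 2.02%, 1.22% and 0.687% of genes in the narrower classes from wide to narrow. By domain, 22 had a Pol II region and no H3K27ac region inside, and 20 of these held a listed factor; the others were the domain of Ankk1 and Ttc12 and that of Ptprm, where H3K27ac lay across an edge. The 20 were 19.4% of the 103 domains with a factor (12.3 to 28.4%), and the other 2 were 0.971% of the 206 without (0.118 to 3.46%). The genes included the homeobox factors Dmbx1, Alx4, Six2, Msx1, Irx1, Irx5, Pitx1, Nkx6-1, Barhl1, Barhl2, Emx2, Pax6 and Pax7, the T-box factors Tbx2 and Tbx3, and Nr2f2, Nfia, Tcfap2a, Foxd1 and Ebf3. Also among them were Msx1as and Emx2os, antisense to Msx1 and Emx2, the ESCRT gene Snf8, and Ankk1, a kinase gene next to Drd2. Reads of antisense pairs cannot be told apart here.

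Apart from Ankk1 and Dmbx1, these genes had Pol II scores below the median of their list. Dmbx1 had 2.91, Tbx2 2.71, Alx4 2.58 and Six2 2.57, and Pax7 was lowest with 2.01, where the list median was 2.78. Ankk1 had the highest Pol II score of the 25, at 3.56 over 13.6 kb, in a domain with an H3K27me3 score of 5.86 and with no H3K4me3 region at the gene. At Six2 (mm9, chr17:86064601-86227400), whose promoter is printed above, the H3K27me3 score was 13.3, H3K4me3 scored 4.04 over 19.1 kb and Pol II covered 4.7 kb. At Ebf3 H3K27me3 scored 13.1, H3K4me3 4.39 over 28.9 kb and Pol II 2.24 over 4.6 kb. A list that starts at a score of 2 cannot show whether weaker H3K27ac was present at these genes.

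H3K27ac and Pol II were found together at 39 domain genes (6.34%), against 9.59% of the genes of all H3K27me3 regions. Both lay wholly inside 13 domains (4.21%), with a median H3K27me3 score of 5.76. Grik3 had the highest H3K27ac score of these, 7.42 over 8.4 kb, with Pol II at 2.76 and H3K4me3 at 10.5. Zfp503, a zinc finger gene expressed in developing striatum, had H3K27ac at 6.66 over 16.9 kb and Pol II at 4.15 over 16.6 kb, in a domain of 103.4 kb with an H3K27me3 score of 3.87. Gpr6, a receptor gene of striatopallidal neurons, had H3K27ac at 5.73 over 7.2 kb and Pol II at 4.07 over 7.4 kb (mm9, chr10:40786901-40911800), with an H3K27me3 score of 5.07. These 3 are well above the median H3K27ac score inside domains of 2.44. The imprinted gene Gnas followed with 4.27 for H3K27ac and 2.52 for Pol II. The remaining 9 were Lbr (3.25), Tle3 (3.101), Foxp4 (3.04), Mast4 (2.34), Id2 (2.01), Tcp11l2, Hivep1, Sdk1 and Spsb1.

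H3K27ac without Pol II was found at 29 domain genes (4.72%), against 9.10% of the genes of all H3K27me3 regions. It lay wholly inside 22 domains (7.12%) with a median H3K27me3 score of 7.04. They included the neuronal genes Sez6l (H3K27ac score 3.46), Dscam (3.70), Kcnj6 and Ppm1e (3.04), the glial factors Sox9 and Nfix (2.47), and Smyd2, Zfp423, Galnt9 (3.49), Kctd15 (3.20), Hs3st2, Fgfr2, Gfra1 and Zbtb16. In these pooled nuclei it cannot be told apart whether H3K27ac and H3K27me3 lay on the same chromosomes, on separate alleles or in separate cells.

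**Figure D4:**
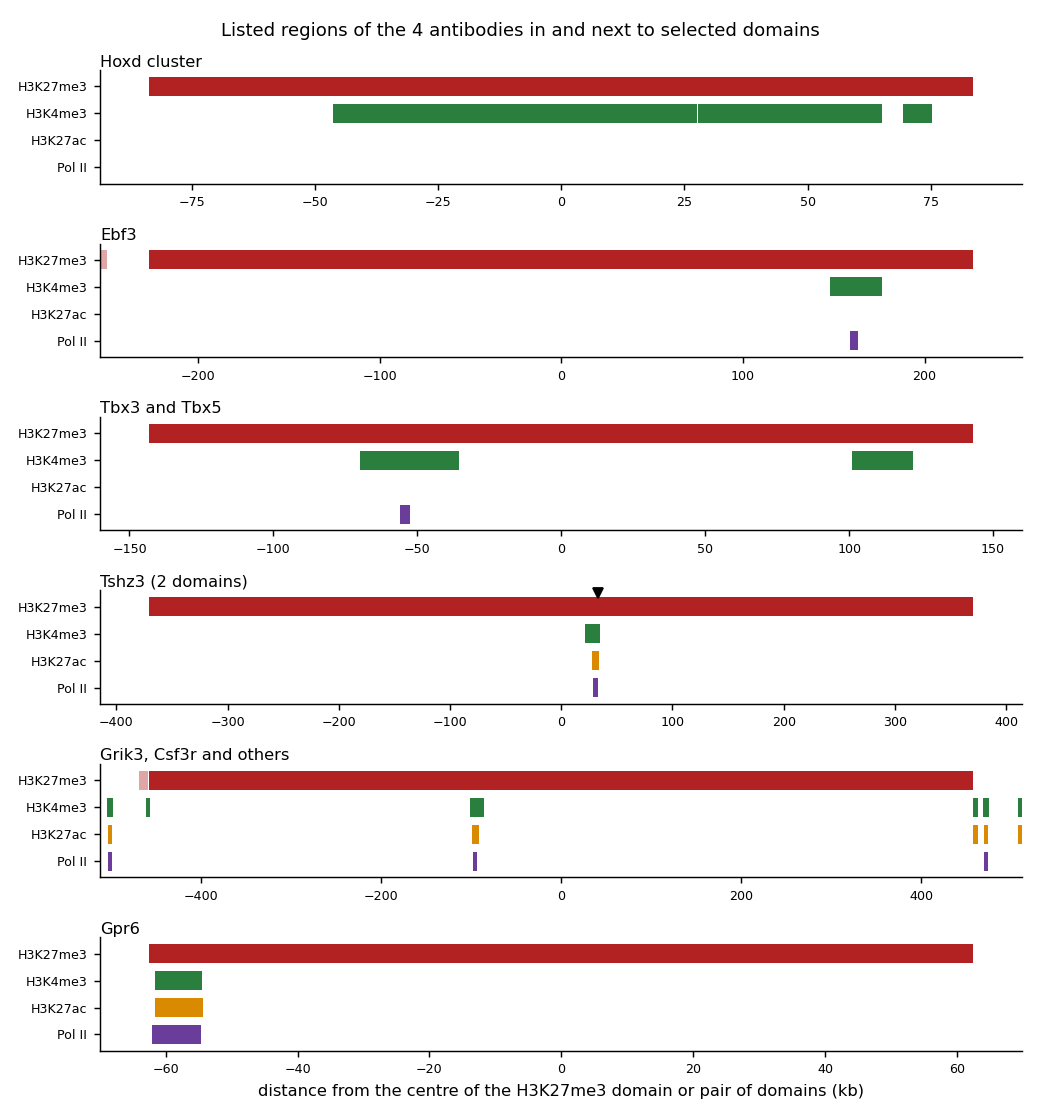
Horizontal bars are the listed regions of the 4 antibodies in and beside 6 selected spans, plotted as distance in kb from the centre of the domain or pair of domains; pale red bars are narrower H3K27me3 regions and the black triangle marks the 0.6 kb gap between the Tshz3 domains. Hoxd shows long H3K4me3 with no H3K27ac or Pol II, Ebf3 and Tbx3 show Pol II without H3K27ac, and Grik3 and Gpr6 show all 3 inside the domain, well away from the edge at Grik3 and close to it at Gpr6.

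Many H3K27ac and Pol II regions lay across a domain edge. Of the pairs of a region and a domain that shared at least 1 bp, 30 of 67 for H3K27ac (44.8%, 32.6 to 57.4%) and 24 of 60 for Pol II (40.0%, 27.6 to 53.5%) crossed an edge, against 46 of 388 for H3K4me3 (11.9%, 8.81 to 15.5%). Regions across an edge stood higher in their lists than regions inside. Their median score percentiles were 54.7 for H3K4me3, 31.8 for H3K27ac and 26.4 for Pol II, against 19.9, 10.1 and 16.8 inside and 62.6, 54.9 and 52.7 for regions with no H3K27me3. Ajap1 had the highest H3K27ac score across an edge, 12.4, and Zcchc7 (5.71) at the edge of the Pax5 domain and Ptprm (5.10) came next. Several edge genes are neighbours of a developmental factor, such as Mthfsd beside Foxc2 and Foxl1 (3.95), Aatf beside Lhx1 (3.92) and Ier3ip1 beside Skor2 (2.79).

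The place of regions within the domains depended on whether those across an edge were counted. For regions wholly inside, the distance of a region's centre to the nearer edge, as a share of the width, had a median of 0.260 for H3K27ac (interval 0.122 to 0.337), 0.305 for Pol II and 0.261 for H3K4me3. Regions at the edge are left out of these medians by definition. With regions across an edge included, the H3K27ac median was 0.036. Gpr6 at 0.036 and Sez6l at 0.042 were near an edge, and Grik3 at 0.396 and Zfp503 at 0.392 were near the middle.

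**Figure D5:**
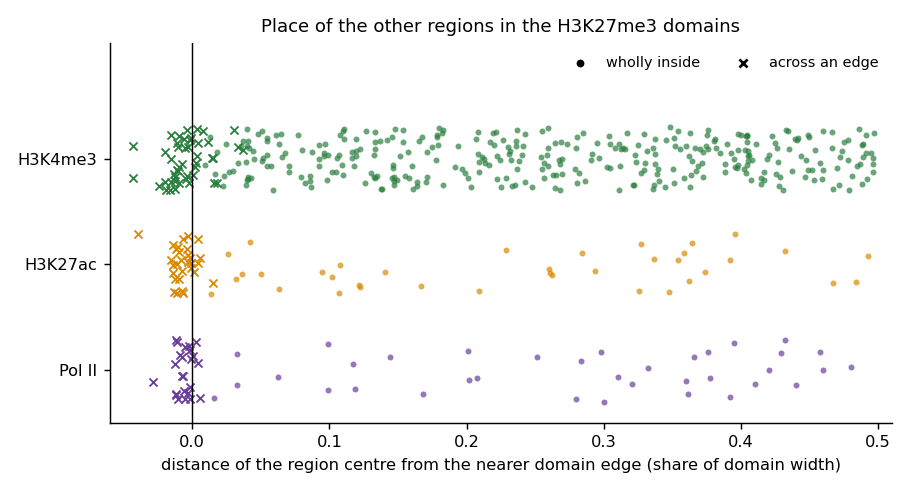
Each mark is a listed H3K4me3, H3K27ac or Pol II region that shares at least 1 bp with a domain, placed by the distance of its centre to the nearer domain edge as a share of the domain width (0 is the edge, 0.5 the middle, below 0 is outside); dots are wholly inside and crosses lie across an edge, with random vertical spread. Dots of all 3 antibodies spread over the whole width, and crosses make up 44.8% of H3K27ac and 11.9% of H3K4me3.

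Some domains were separated from the next H3K27me3 region by a short gap. There were 129 gaps of up to 20 kb beside a domain, with a median of 2.6 kb, and H3K4me3 lay in 32 of them (24.8%, 17.6 to 33.2%), H3K27ac in 20 (15.5%, 9.73 to 22.9%) and Pol II in 16 (12.4%, 7.26 to 19.4%). For 2321 such gaps between narrower regions the shares were 19%, 9.996% and 5.56%. At Tshz3, a teashirt zinc finger homeobox gene, a gap of 0.6 kb parted 2 domains spanning 740.5 kb together, and H3K4me3 (12.3), H3K27ac (3.81) and Pol II (2.63) overlapped it. A gap of 1.9 kb parted Irx3 and Irx5 within 856.6 kb, and 4.4 kb parted Foxf1a and Foxc2 within 554.9 kb. Of 22 gaps between domains, 4 held all of the 3 other antibodies, at 1810063B07Rik, Wdr1, Tshz3 and Mthfsd.

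None of the 3 other antibodies was found at 168 domain genes (27.3%), against 47.3% of the genes of all H3K27me3 regions. Wider regions have more room, so a domain with nothing inside becomes rarer with width by construction. No region of the other antibodies lay inside 60 domains (19.4%), and 45 also had none across an edge. Their median H3K27me3 score was 5.77, and 5 of the 60 held a listed factor, the Tshz3 pair, Lhx1, Foxi1 and Runx3. Runx3, a factor of sensory neurons and T cells, had a score of 11.4 and the heart gene Jph2 10.4. Others included the macrophage receptor gene Marco (6.79), the potassium channel gene Kcnj15, the liver genes Asgr1 and Asgr2, the carboxylesterase genes Ces3a and Ces3b, the kidney transporter genes Slc22a12 and Slc6a19, the keratin genes Krt5 and Krt71, kallikrein genes and the cytokine gene Il21. Mir701, Mir135a-2 and Mir802 were each the only gene of such a domain.

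Domains were found on all autosomes and on the X chromosome. Chromosome 5 had the most, 31 of 422 listed regions (7.35%, 5.05 to 10.3%), beside 3.76% of all listed regions. By number, chromosome 2 came next with 29 of 711 (4.08%), then chromosomes 4 (25 of 508, 4.92%) and 7 (25 of 819, 3.05%). By share, chromosomes 18 (10 of 181, 5.52%) and 13 (18 of 346, 5.20%) came after chromosome 5. On X 1 of 215 regions was a domain (0.465%, 0.0118 to 2.56%).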

How the data were processed

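The study has 1 library for each of 4 antibodies and 1 input. The submitters' processing notes name Bowtie 0.12.7, MACS 1.4 and mm9. The deposited lists give, per region, a transcript, a symbol and the authors' score over input, and their names state a 3 kb window around the start site. What scale the score has was not stated. For the 4 domains listed with several scores the highest was kept.

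Domains were unique H3K27me3 regions wider than 100000 bp. A region was inside when wholly contained. A gene had a mark when a region listed for its symbol shared 1 bp or more with its widest H3K27me3 region. Of 615 domain genes, 614 matched a GRCm38.p6 gene table, used for biotypes and families. The rule for names took genes of the 10 widest and 10 highest-scoring domains and of the 5 with most genes, the 5 regions on either side of the limit, domains by state, and list members; other names were chosen after their values were seen. Members and lists were chosen with earlier results of these data known. Shares carry exact 95% intervals and differences of shares Newcombe intervals; no p-value was computed. The interval code was tested on simulated data. The software was Python 3.11.15 with pandas 2.3.3, scipy 1.17.1, numpy 2.4.6 and matplotlib 3.10.9. Alternatives covered the width limit, score filters, overlap rule and gene link. Region positions are mm9, counted from 1. Some genes that the rule names are not reported here.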

Additional observations from a re-analysis of the deposited data

How the results depend on the processing

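Of 77 recomputed values, 46 moved by less than their interval or within the allowed range, 29 moved further and 2 changed sign. Both sign changes concern the H3K4me3 difference of 21.4 points, which became -2.64 with only the upper 50% of the H3K4me3 list and -3.28 with lists cut to the length of the shortest. The number of domains (309) was 144 at 150 kb, 460 at 80 kb and 391 with regions less than 5 kb apart joined. The values of 460 and 391 counted as within the allowed range. H3K4me3 inside domains (79.6%) was 85.4% with 1 bp shared, 11.3% in the upper 50%, 16.8% with lists of equal length, 84.0% at 150 kb and 96.1% in the higher-scoring domains. H3K27ac inside (11.3%) was 19.4%, 1.29% and 4.85% in the first 3 of these settings and 6.49% in the higher-scoring domains; Pol II inside (11.3%) was 18.8% with 1 bp shared and 1.62% in the upper 50%. Among genes, H3K4me3 (72.5%) was 10.7% in the upper 50%, 14.5% with equal lists and 90.6% in factor domains; H3K27ac (11.1%) was 1.79%, 6.34% and 5.83%, and Pol II (10.4%) 1.79% in the upper 50% and 13.5% in factor domains. The H3K27ac difference was -12.6 points when any line of the symbol counted and -3.12 in the upper 50%, and that of Pol II was -3.52 (-5.92 to -0.68) when any line counted. The H3K27ac position was 0.036 with 1 bp shared. The factor share (27.7%) was 32.7% at 80 kb and 20.1% at 150 kb. Genes per 100 kb were 1.05 for coding genes, 1.31 at 80 kb and 0.97 at 150 kb. By construction fewer regions or genes enter under the score filters, the 150 kb limit and the subsets, and more at 80 kb; otherwise the cause was not tested. The factor-domain and higher-scoring settings and one without the Hox clusters were chosen after seeing the data. The planned CpG comparison was not run, since 77.6% of domain genes had a promoter in the table, below the 80% asked for. No paired analysis was possible because each antibody has 1 library. Depth is unknown, so how it limits each list could not be measured, and a region scored below 2 is not listed.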

Other observations

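Several domains held imprinted genes, of which 4 domains are described. The domain of Igf2, H19 and Ins2 (139.4 kb, H3K27me3 score 10.5) had H3K4me3 at Igf2 (score 3.71 over 14.3 kb) and at H19 (3.04 over 5.3 kb), and no H3K27ac or Pol II region sharing the domain was listed for either. The domain of Gnas and its antisense gene Nespas (148.8 kb, score 9.58) had H3K4me3 (7.34), H3K27ac (4.27) and Pol II (2.52) at Gnas. The domain of Cdkn1c, Phlda2 and Slc22a18 (119.3 kb, score 9.88) and that of Kcnq1 (102.5 kb, score 7.95) had H3K4me3 inside and no H3K27ac or Pol II region sharing a base with them. Dio3, also imprinted, missed the limit with 99.6 kb and a score of 11.9. These loci were picked after their values were seen, and parental alleles cannot be told apart in these lists.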
